A study of Homo sapiens with 6 samples.

Results

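The genes examined here make cholesterol and fatty acids or control that synthesis through the SREBP transcription factors. They were chosen by function, as a list of 33 genes, with earlier results of these data known. Each was read by its brightest probe set among those annotated with that gene alone. Of the 33, 29 were measured, out of 19775 genes on the arrays. CYP51A1 and FADS1 were left out because every probe set naming them also named another gene (2 and 3 probe sets), and FDFT1 and ACSL3 were not analysed here.

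The study gave miR-224 precursor molecules to HCT116, an established human colon carcinoma line, and compared them with cells given control oligos. Both were transfected at 50 nM and collected after 24 h, in medium with serum. There are 3 miR-224 and 3 control arrays, 1 pair for each of 3 experiments stated to be independent. Every array reads total RNA of 1 line, and its values are log-scale expression values, taken as log2 although the base is not stated. The question is which transcripts differ once cells receive miR-224, and the number of arrays limits the precision of every answer.

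Cholesterol is built from acetyl-CoA through HMG-CoA, mevalonate, farnesyl diphosphate, squalene and lanosterol. Fatty acids start from the same acetyl-CoA, which ATP citrate lyase supplies in the cytosol. When sterols in the endoplasmic reticulum run low, SCAP carries the SREBP proteins to the Golgi, where they are cut and released to switch on these genes. When sterols are plentiful, INSIG proteins hold SCAP back. SREBP sites in promoters usually lie beside sites for NF-Y and Sp1.

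The mature strands of miR-224 are shown because a microRNA finds its targets through its seed, bases 2 to 8, given in capitals. The RefSeq table places them on the minus strand of GRCh38.p14, the 5p strand at chrX:151958628-151958652 and the 3p strand at chrX:151958584-151958606. Which strand and which end the transfected precursor yields is not given in the sources used here, and sites in the members' transcripts were not analysed here.
hsa-miR-224-5p: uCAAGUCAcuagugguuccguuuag
hsa-miR-224-3p: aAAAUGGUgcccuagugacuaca

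Of the 29 measured members, 24 had a lower mean in miR-224 cells, against 46.8% of all genes, and the median log2 difference was -0.16, against 0.01 over all genes. It ran from -0.23 without experiment 1 to -0.093 without experiment 2. No member passed the test over all genes, nor did any other gene (limma with experiment as a block, percent called 0.00, lowest adjusted p = 0.0860). Members had an adjusted p of 0.271 to 0.994. At an unadjusted p under 0.05, 7 members were lower (24.1%), against 5.52% of all genes, and 0 were higher, against 5.45%. The 7 were ACLY, HMGCS1, INSIG1, SREBF2, PMVK, ACAT1 and TM7SF2. In every one of the 3 experiments 9 members were lower, against 14.4% of all genes, and 2 were higher (FDPS and SC5D, or 1 with median centring), against 18.3%. In experiment 1 the 9 lay only between -0.11 (IDI1) and -0.018 (PMVK), and FDPS and SC5D at 0.10 and 0.07. The SD over all genes was 0.23 there.

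The 3 experiments did not show the same picture. In experiment 1 the members had a median difference of 0.03 and 13 of 29 were lower, which was near the 46.6% of all genes. In experiment 2 the median was -0.26 and 23 were lower, against 49.2% of all genes. In experiment 3 the median was -0.32 and again 23 were lower, against 47.0%. Lower in both experiments 2 and 3 were 20 members (69.0%), against 27.1% of all genes, and higher in both were 3, against 30.3%. With 1 pair in each experiment, a difference between experiments could not be tested. The arrays of experiment 1 also differed in the part of transcripts they read: actin's 5′ probe set stood at 4.14 to 4.42 there and at 12.3 to 12.5 in experiments 2 and 3, while its 3′ probe set stood at 12.4 to 12.5 on all 6. Its part in the members' values was not tested.

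**Figure D1:**
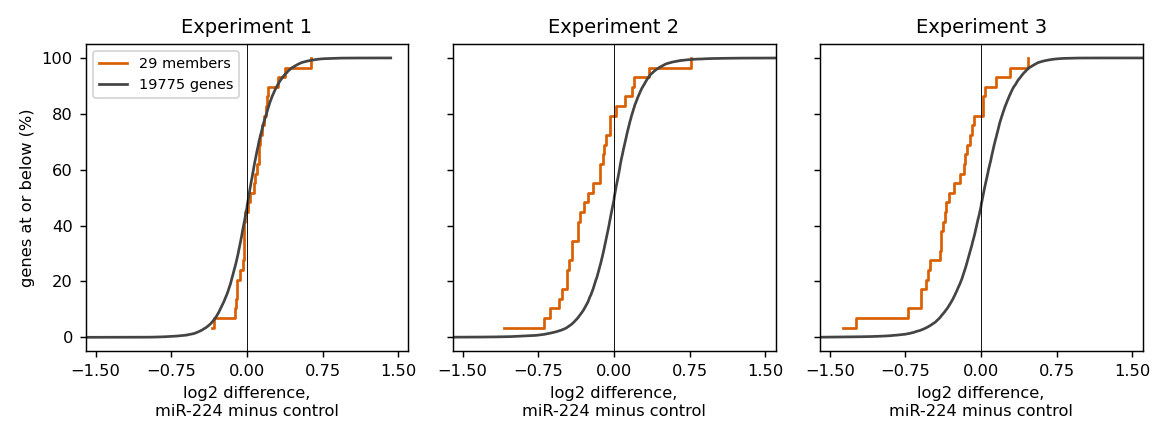
Share of genes (%) at or below each log2 difference, miR-224 minus control, in each experiment, for the 29 members (orange steps) and all 19775 genes (dark line). The member curve runs near that of all genes in experiment 1 and lies to its left in experiments 2 and 3, where its medians are -0.26 and -0.32.

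The first enzymes make acetoacetyl-CoA and HMG-CoA. HMGCS1, which condenses acetoacetyl-CoA with acetyl-CoA to HMG-CoA, had 6.60, 5.78 and 5.00 in the miR-224 cells of experiments 1, 2 and 3, against 6.67, 6.30 and 5.60 in control cells. It was lower in each experiment, while its level differed more between experiments than between treatments, so that the groups overlapped. Its difference was -0.40 ± 0.13 (SE, limma with experiment as a block, adjusted p = 0.314). ACAT1, the mitochondrial thiolase that works mainly in ketone body and isoleucine metabolism, had 9.04, 7.68 and 7.81 in miR-224 cells and 8.85, 8.77 and 8.54 in control cells. It was lower in experiments 2 and 3 and slightly higher in experiment 1, with a difference of -0.54 ± 0.20 (adjusted p = 0.375).

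AACS, the cytosolic enzyme that activates acetoacetate for lipid synthesis, had 7.06, 5.94 and 4.79 in miR-224 cells, against 6.85, 6.36 and 6.03 in control cells. Its difference was largest in experiment 3 (-1.24) and positive in experiment 1 (0.21), and its mean of -0.48 ± 0.22 had an adjusted p of 0.463. ACAT2, the cytosolic thiolase that opens the mevalonate route, stood at -0.11, -0.11 and 0.15 in the 3 experiments. Its mean of -0.03 (95% interval -0.27 to 0.22) turned to 0.011 when the values were quantile-normalized again.

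From mevalonate to farnesyl diphosphate, 4 of 5 genes had a lower mean. PMVK, the kinase which adds the second phosphate to mevalonate, had 6.02, 5.79 and 6.11 in miR-224 cells, against 6.04, 6.26 and 6.64 in control cells. The pair of experiment 1 was nearly equal and the other pairs were about equally far apart, with a mean difference of -0.34 ± 0.13 (adjusted p = 0.374). MVD, which decarboxylates the product to isopentenyl diphosphate, was lower in each experiment, at -0.03, -0.29 and -0.16. In experiment 1 its level was 4.57 in miR-224 and 4.59 in control cells, below the median level of all genes (4.75). The sign there therefore says little. IDI1, the isomerase of the next step, was also lower in each, at -0.11, -0.34 and -0.21, on a probe set of a kind that can bind related transcripts. MVK, the first kinase, had a mean difference of -0.05 (95% interval -0.29 to 0.18). FDPS, which builds farnesyl diphosphate, was the only member of this step with a higher mean, at 0.08 (95% interval -0.15 to 0.31), and was higher in each experiment by 0.10, 0.11 and 0.02. A missed test does not show that a gene was level.

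At the squalene step, SQLE, the epoxidase that is one of the pathway's control points, had a difference of -0.03, -0.04 and -0.40 in experiments 1, 2 and 3. LSS, which closes the sterol rings to lanosterol, stood at -0.33, 0.02 and -0.27. Their means were -0.16 ± 0.12 and -0.19 ± 0.11 (adjusted p = 0.683 and 0.586). For SQLE the difference in experiment 3 carried most of the mean, and LSS was the member of this step with the lower value in experiment 1.

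The 7 measured enzymes between lanosterol and cholesterol were mixed, with 4 lower and 3 higher and a median of -0.09. TM7SF2, a sterol reductase of the endoplasmic reticulum, had 5.28, 5.44 and 6.42 in miR-224 cells, against 5.38, 5.80 and 6.74 in control cells. It was lower in each experiment by less than the experiments differed, at -0.26 ± 0.11 (adjusted p = 0.435). MSMO1, which removes methyl groups from the sterol ring, stood at 0.08, -0.08 and -0.55, and NSDHL, which acts with it, at 0.37, -0.14 and -0.50. HSD17B7, the ketoreductase of the same complex, stood at 0.15, -0.46 and -0.16, and its probe set is of the kind that can bind related transcripts. On these probe sets MSMO1, NSDHL and HSD17B7 were higher in experiment 1 and lower in experiments 2 and 3. Another bright probe set of NSDHL was lower in each experiment, at -0.09, -0.04 and -0.51.

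SC5D, the desaturase near the end of the route, ran the other way and was higher in each experiment, by 0.07, 0.19 and 0.29, with a mean of 0.18 ± 0.11 (adjusted p = 0.578). EBP, the sterol isomerase, stood at -0.35, 0.18 and 0.47, while a probe set nearly as bright stood at -0.04, -0.06 and 0.14. DHCR7, the last reductase, stood at 0.31, -0.10 and -0.07. With experiment 1 left out, the median of the 7 was -0.31.

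**Figure D2:**
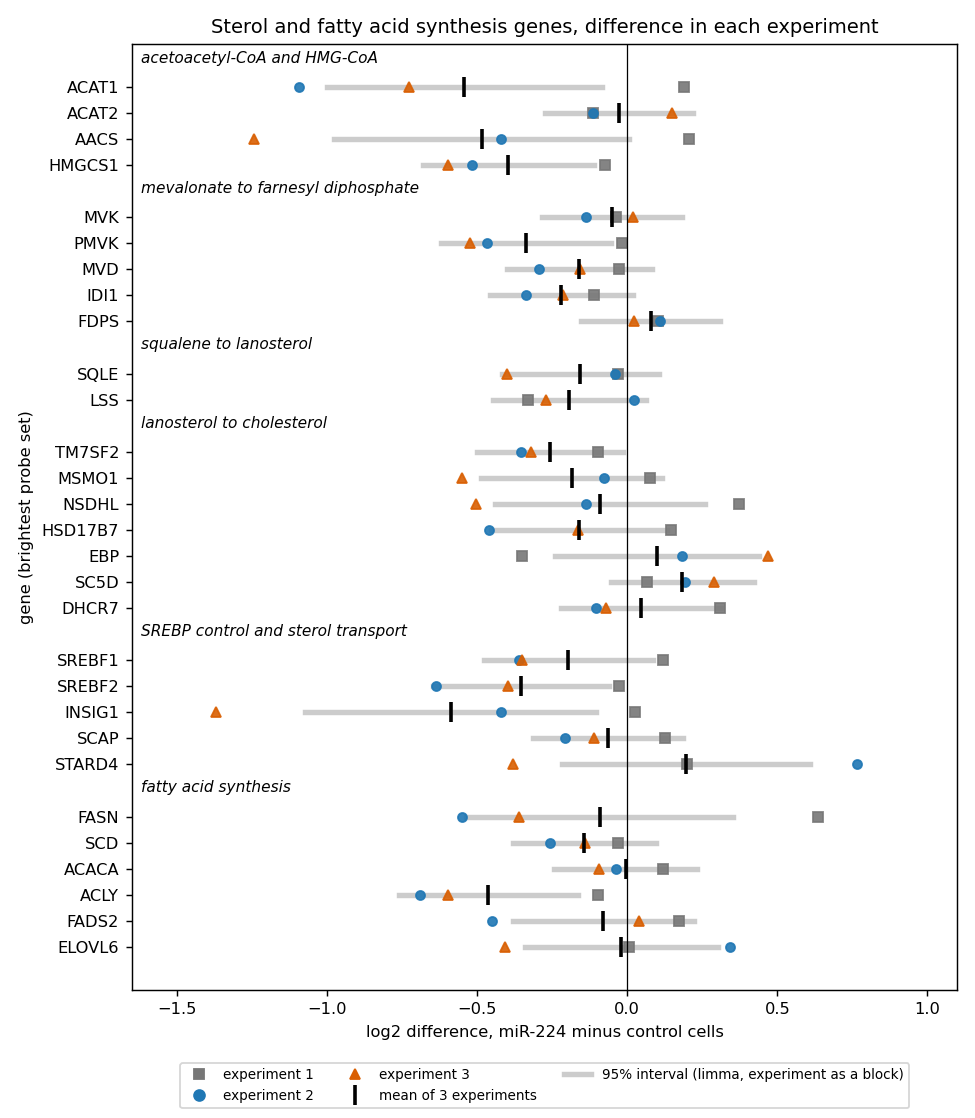
Log2 difference, miR-224 minus control, for each of the 29 members, grouped by step. Coloured symbols are the 3 experiments, black bars their mean, and grey bars the 95% interval of the limma fit with experiment as a block. Most symbols of experiments 2 and 3 lie left of 0, while those of experiment 1 lie around 0; INSIG1 (-0.59) and ACAT1 (-0.54) have the lowest means.

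Among the genes that control the pathway, INSIG1 had the lowest mean of all members, though ACAT1 was lower without experiment 1 (-0.91, against -0.89 for INSIG1) and without experiment 3 (-0.45, against -0.20), and with array weights (-0.61, against -0.54). INSIG1, which keeps SCAP in the endoplasmic reticulum and is itself a target of SREBP, had 7.36, 8.07 and 5.84 in miR-224 cells, against 7.33, 8.49 and 7.21 in control cells. The pair of experiment 1 was level, that of experiment 3 was the farthest apart of any member, and the groups overlapped. The difference was -0.59 ± 0.22 (adjusted p = 0.364), and it was 0.03, -0.42 and -1.37 in the 3 experiments.

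SREBF2, which encodes the SREBP that mainly drives cholesterol genes, had 6.94, 6.76 and 6.73 in miR-224 cells, against 6.96, 7.39 and 7.12 in control cells. Every miR-224 array lay below every control array, which held for 1 of 29 members and for 2.11% of all genes. The gap between the nearest arrays was small, and the difference was -0.35 ± 0.13 (adjusted p = 0.367). SREBF1, whose products mainly drive fatty acid genes, stood at 0.12, -0.36 and -0.35. Its other probe set stood at 0.25, -0.32 and 0.05. SCAP, the escort of the SREBPs, stood at 0.12, -0.21 and -0.11, and its control arrays were the closest together of all members, at 7.53, 7.49 and 7.55. STARD4, a sterol carrier of the cytosol, differed in sign between experiments, at 0.20, 0.77 and -0.38.

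**Figure D3:**
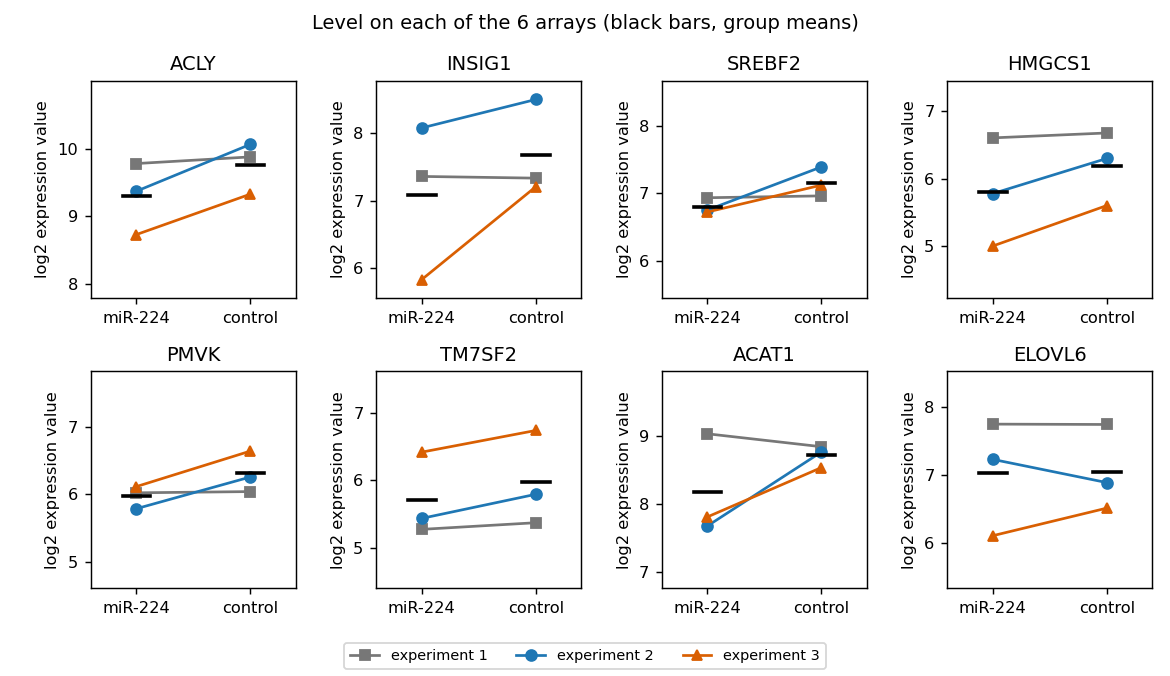
Level (log2 expression value) of 8 members on the 6 arrays, miR-224 left and control right, each line joining the pair of 1 experiment and black bars marking group means; every panel spans the same range. Lines of experiments 2 and 3 slope up to the control side for 7 genes, those with an unadjusted p under 0.05, and ELOVL6, shown for contrast, slopes both ways.

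Of the 6 measured fatty acid synthesis genes, ACLY had the smallest p of all members. ACLY, the ATP citrate lyase that supplies acetyl-CoA to both routes, had 9.78, 9.37 and 8.73 in miR-224 cells, against 9.88, 10.06 and 9.33 in control cells. It was lower in each experiment, with groups that overlapped because experiment 3 lay lower as a whole. Its difference was -0.46 ± 0.13 (unadjusted p = 0.0065, adjusted p = 0.271). SCD, the desaturase that makes oleate and palmitoleate, was also lower in each experiment, at -0.03, -0.26 and -0.14.

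FASN, the fatty acid synthase, gave the widest split between experiments in this step. It had 8.44, 9.11 and 9.17 in miR-224 cells, against 7.81, 9.66 and 9.53 in control cells. The miR-224 array was the higher one in experiment 1 and the lower one in experiments 2 and 3, and the mean difference was -0.09 ± 0.20. ACACA, which makes malonyl-CoA, had a mean difference of -0.0042 (95% interval -0.24 to 0.23), with 0.12, -0.04 and -0.10 in the experiments. FADS2, a desaturase of polyunsaturated fatty acids, stood at 0.17, -0.45 and 0.04. ELOVL6, an elongase of saturated and monounsaturated fatty acids, stood at 0.01, 0.34 and -0.41, and its mean of -0.02 turned to 0.014 when the values were quantile-normalized again and to 0.043 with array weights.

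When experiments 2 and 3 were fitted alone with experiment as a block, 174 of 19775 genes were called (0.880%) and 1 of them was a member. That member was ACAT1, which fell by 0.91 on the log2 scale (± 0.14 SE, limma adjusted p = 0.0206). Its difference was 0.19 in experiment 1, left out there. ACLY came next with -0.64 ± 0.13 (adjusted p = 0.0568), then INSIG1 with -0.89 ± 0.20 (adjusted p = 0.0698) and AACS with -0.83 ± 0.18 (adjusted p = 0.0703). At an unadjusted p under 0.05, 12 members were lower in this fit (41.4%), against 6.71% of all genes. The fit leaves out the experiment in which the members lay near all genes, so a larger share can follow from that choice. It rests on 1 residual degree of freedom, so its standard errors lean on variances pooled over genes. With experiment 2 or experiment 3 left out instead, 0 genes and 0 members passed. With robust variances and a trend by intensity, fitted to all 3 experiments, 0.283% of genes and no member passed, and ACLY came nearest among the members (adjusted p = 0.0986).

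Other probe sets of the same genes tell how far a single probe set speaks for its gene. Of the 29 members 19 had several, 35 further probe sets in all, of which 23 had the sign of the brightest one. Of the 18 at or above the median level of all genes, 12 did. For INSIG1 all 3 probe sets lay close together, at -0.59, -0.66 and -0.59, and all were lower in experiments 2 and 3. For ACLY they stood at -0.46, -0.35 and -0.44, each lower in every experiment. These are the members for which 3 probe sets at or above the median level of all genes gave nearly one value.

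SREBF2 was less even, with -0.35, -0.14 and -0.20, and its second probe set was higher in experiment 1 by 0.60. The brightest probe set of SQLE stood at -0.16 and its next at -0.30, lower in every experiment. ACAT1 and HMGCS1 had other probe sets, though only dim ones, at -0.15 and -0.04 for ACAT1 and -0.78 for HMGCS1. Among bright probe sets, signs disagreed for MVK (-0.05 and 0.27), DHCR7 (0.04 and -0.13), ELOVL6 (-0.02 and 0.06) and SCD, where the brightest stood at -0.14 and the others at 0.04, 0.10 and 0.03. A dim probe set differed in sign from the brightest for LSS (0.12), FASN (0.15) and FADS2 (0.32). PMVK, AACS, TM7SF2 and MSMO1 had 1 probe set each, as did ACAT2, MVD, FDPS, HSD17B7, SCAP and STARD4.

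**Figure D4:**
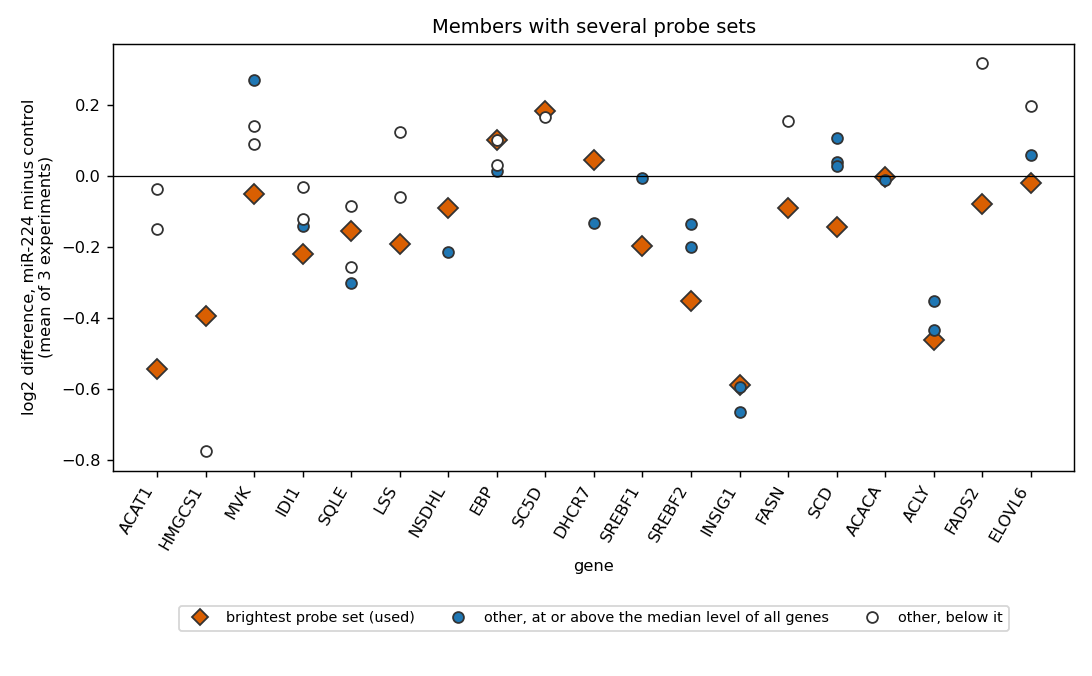
Log2 difference, miR-224 minus control (mean of 3 experiments), for every probe set of the 19 members that have several. Diamonds are the probe set used, filled circles others at or above the median level of all genes, open circles dimmer ones. All probe sets of INSIG1 and ACLY lie at -0.35 or below, whereas those of MVK, SCD and FADS2 lie on both sides of 0.

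Levels of the members also moved between experiments among control cells. Across the 3 control arrays a member spanned a median of 0.72, against 0.39 for all genes, while the size of the treatment difference had a median of 0.16 over the members. The members were also brighter, with a median level of 7.38, against 4.75 for all genes. A comparison with genes of like level was not made. In control 3, 26 of 29 members were lower than in control 2, against 49.9% of all genes, and the median of this difference was -0.33 for members and 0 for all genes. The difference, control 3 minus control 2, was -1.29 for INSIG1, -1.17 for ACAT2, -1.07 for EBP and -1.01 for MSMO1, whereas it was 0.94 for TM7SF2. Control 1 minus the mean of the other controls was -1.86 for MVD, -1.79 for FASN, -1.48 for EBP and -1.09 for SREBF1. It was 1.05 for ELOVL6 and 0.97 for ACAT2. The miR-224 arrays read the same experiments, with 4.57, 6.22 and 6.23 for MVD and 8.44, 9.11 and 9.17 for FASN in experiments 1, 2 and 3. Experiment 1 is also the one whose 5′ probe sets of actin and GAPDH averaged 4.28 and 4.10, against 12.4 and 13.0 in experiments 2 and 3, and the part of this in the members' levels was not tested.

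**Figure D5:**
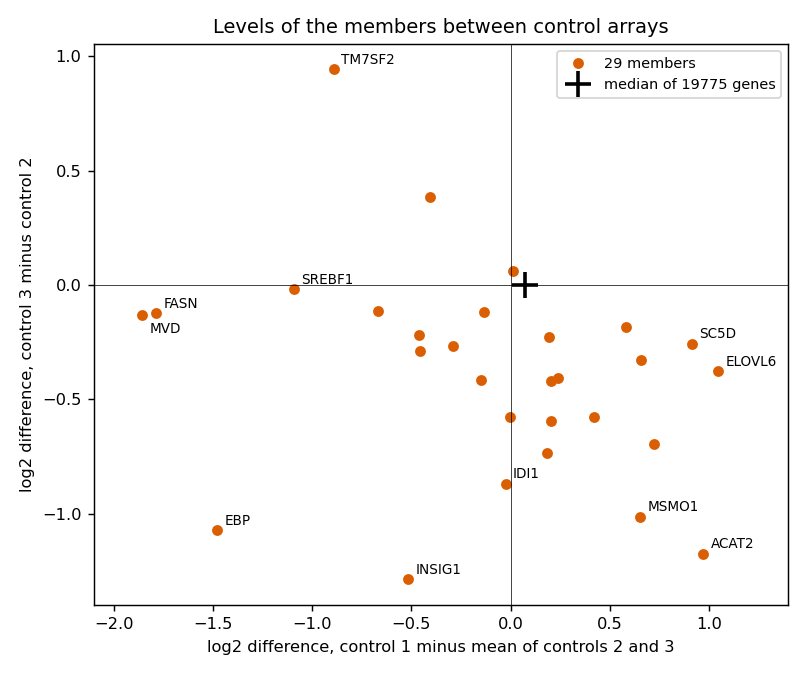
Level of the 29 members in control 1 minus the mean of controls 2 and 3 (horizontal, log2) against control 3 minus control 2 (vertical, log2). Each point is 1 member and the cross is the median of 19775 genes. Most points lie below the cross, and MVD, FASN, EBP and SREBF1 lie far to its left.

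Genes around the pathway were read from further lists. Of 12 other sterol and isoprenoid genes, 10 had a lower mean, against 46.8% of all genes, and the list's median was -0.16. At an unadjusted p under 0.05, which 5.52% of all genes passed as lower and 5.45% as higher, 5 of the 12 were lower and 0 higher. Those lower in each experiment with the smallest p were PGGT1B, a subunit of the enzyme that adds geranylgeranyl groups to proteins (-0.41 ± 0.12), FNTB, a subunit of farnesyltransferase read by a dim probe set (-0.42 ± 0.13), and PDSS2, of ubiquinone side chain synthesis (-0.31 ± 0.12). Of 14 other genes of SREBP processing and transport, 3 had a lower mean, the median was 0.10, and 3 were higher at that p, namely MBTPS1, the first protease that cuts the SREBPs (0.34 ± 0.13), SEC24A, a coat protein of vesicles that leave the endoplasmic reticulum (0.32 ± 0.13), and PAQR3, a Golgi anchor of SCAP (0.30 ± 0.13). Adjusted p was 0.282 to 0.431 for these 6 genes.

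The neighbouring routes had medians near that of all genes. Sterol uptake, esterification and efflux had a median of -0.04 over 16 genes, with 2 lower at that p, MYLIP, a ubiquitin ligase for lipoprotein receptors read by a probe set that can bind related transcripts (-0.39 ± 0.11), and LIPA, the lysosomal acid lipase (-0.26 ± 0.11). Other fatty acid synthesis genes had a median of 0.03 over 21. At that p 2 were higher, ELOVL7, another elongase (0.61 ± 0.16), and THRSP, read by a dim probe set (0.30 ± 0.12). The 1 lower was MID1IP1, which aids acetyl-CoA carboxylase (-0.34 ± 0.11). Activation and glycerolipid assembly had a median of -0.02 over 19 genes, with LPIN1, a phosphatidate phosphatase, lower (-0.33 ± 0.11) and ACSBG1, read by a dim probe set, higher (0.27 ± 0.11). Fatty acid oxidation had a median of -0.03 over 18 genes, with 0 past an unadjusted p of 0.05 in either direction. These shares stand beside the 5.52% lower and 5.45% higher among all genes. No gene of these lists passed over all genes (lowest adjusted p = 0.244). Differences between lists were not tested.

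Promoters of ACLY, HMGCS1, INSIG1 and SREBF2, the members with the smallest unadjusted p, are shown because the SREBPs act there with NF-Y. ACAT1 and AACS, which had lower means than ACLY, HMGCS1 and SREBF2, are not shown. In the RefSeq table of GRCh38.p14, 29 of the 33 listed members had a promoter window from 250 bases before to 50 after the start, 39 windows in all, with none for ACAT2, SQLE, FASN and FDFT1. The NF-Y box CCAAT, on either strand, lay in 26 of the 39 windows (66.7%), against 34.6% of 35116 windows of all genes. At least 2 such boxes lay in 17 (43.6%), against 10.8%. The windows of ACLY overlap, as do those of SC5D, and hold the same boxes, so these boxes count in more than 1 window. The Sp1 box GGGCGG lay in 34 (87.2%), against 45.0% of all windows and 56.7% of those of genes measured here, and the E-box CACGTG in 5 (12.8%), against 7.26%. The SRE consensus TCACNCCAC lay in 1 window (2.56%), that of SREBF2, against 1.13% of all. Of the 7 members lower at an unadjusted p under 0.05, 6 held CCAAT in a window, as did 22 of the 29 members with a window. These are counts per gene, and a gene with several windows can match more easily. The share per gene over all genes was not computed.

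Below, the 250 bases before the start are given 5′ to 3′ on the gene's strand, with the SRE and the CCAAT boxes, or ATTGG where they lie on the other strand, in capitals. In SREBF2 the SRE begins 133 bases and the box 106 bases before the start. INSIG1 has 1 box and HMGCS1 has 2. RefSeq gives HMGCS1 and ACLY 2 windows each, of which 1 is shown. The other window of HMGCS1 holds 0 boxes, while both windows of ACLY hold the same 2. A match is a run of letters, not a shown site of binding, and a window without one says nothing on more distant sites.
SREBF2, chr22:41832855-41833104, plus strand: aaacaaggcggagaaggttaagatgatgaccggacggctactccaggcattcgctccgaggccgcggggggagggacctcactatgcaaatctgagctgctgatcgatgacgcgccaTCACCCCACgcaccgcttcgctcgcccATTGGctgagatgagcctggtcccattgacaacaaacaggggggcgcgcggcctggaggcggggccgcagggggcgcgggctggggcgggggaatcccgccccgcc
INSIG1, chr7:155297628-155297877, plus strand: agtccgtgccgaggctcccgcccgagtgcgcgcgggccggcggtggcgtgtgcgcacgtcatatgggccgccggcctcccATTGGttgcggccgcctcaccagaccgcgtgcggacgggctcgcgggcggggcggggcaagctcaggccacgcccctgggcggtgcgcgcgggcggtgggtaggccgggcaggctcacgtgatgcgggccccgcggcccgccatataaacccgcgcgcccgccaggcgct
HMGCS1, chr5:43313413-43313662, minus strand: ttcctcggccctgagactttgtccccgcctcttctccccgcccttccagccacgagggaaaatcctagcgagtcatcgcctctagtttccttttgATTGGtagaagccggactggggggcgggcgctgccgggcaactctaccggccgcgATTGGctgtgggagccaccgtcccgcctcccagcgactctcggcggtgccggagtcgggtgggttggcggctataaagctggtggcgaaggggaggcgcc
ACLY, chr17:41919023-41919272, minus strand: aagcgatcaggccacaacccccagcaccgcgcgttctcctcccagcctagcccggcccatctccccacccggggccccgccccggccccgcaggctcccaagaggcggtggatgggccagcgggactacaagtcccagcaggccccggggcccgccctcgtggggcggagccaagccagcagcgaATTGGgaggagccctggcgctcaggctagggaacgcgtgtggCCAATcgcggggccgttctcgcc

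Among epithelial markers of the line, EPCAM stood at 10.1 to 10.8 and KRT18 at 12.1 to 12.5 on the 6 arrays, while VIL1 was at 3.72 to 4.33. KRT8 stood at 7.30 in miR-224 and 6.73 in control cells of experiment 1, and at 11.2 and 11.3 in the control cells of experiments 2 and 3. Of 16 measured markers of leukocytes, fibroblasts, endothelium and hepatocytes, 0 passed over all genes and 1, PTPRC, was higher at an unadjusted p under 0.05 (limma, 0.28, adjusted p = 0.368). On the 6 arrays the leukocyte markers stood at 2.14 to 3.72, the endothelial ones at 2.06 to 4.66 and the hepatocyte ones at 1.77 to 4.34. The fibroblast markers stood at 1.82 to 6.19, with COL1A1 the highest, at 5.66 to 6.19.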

How the data were processed

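The authors made the deposited values with RMA and Partek, per the submitters' processing notes, with versions and settings not given in the sources used here. These deposited log2 values lay between 1.47 and 13.6 with array medians from 3.41 to 3.53. RMA scales the arrays alike, so a shift common to most genes would not show. Of 54675 probe sets, 41091 named 1 gene, 1801 several and 11721 none, and 62 controls were left out. The brightest probe set, by mean over the 6 arrays, stood for each gene.

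Differences were tested in R 4.3.3 by limma 3.58.1 (lmFit and eBayes, two-sided, with Benjamini-Hochberg adjustment over 19775 genes, threshold 0.05), with experiment as a block, since the series describes pairs and the titles number both groups. Deviations from the group means correlated at 0.855, 0.585 and 0.771 across genes for arrays of the same number and at -0.753 to 0.257 otherwise. The fit leaves 2 residual degrees of freedom. On simulated data with independent normal noise it returned the planted differences on average. That does not show how well its p-values hold on these arrays. Nothing in the labels says more of how separate the cultures were than that the experiments were independent.

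The members and lists were chosen with earlier results of these data known. Named genes are all measured members and, of other lists, up to 4 genes with an unadjusted p under 0.05 and one sign in all experiments, by smallest p. Alternatives were no block, each experiment left out, an intensity trend with robust variances, genes at or above the median level, 2 other scalings, averaging all probe sets of a gene, and array weights. Plots came from Python 3.11.15 and matplotlib 3.10.9.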

Additional observations from a re-analysis of the deposited data

How the results depend on the processing

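With no replicate block, 0 genes and 0 members passed, no difference changed and the members' standard errors lay between 0.12 and 0.76, against 0.10 to 0.22 with it, so the block changed no call. Genes called numbered 0 to 174 and members called 0 to 1 with single experiments left out, 56 and 0 with an intensity trend and robust variances, and 4 and 0 with array weights. Members lower in every experiment kept in the fit numbered 10 to 20 with one left out (20 without experiment 1), and members higher in every one numbered 3 to 4, or 1 with median centring. The median over all members ran from -0.23 to -0.093, and was -0.10 when all probe sets of a gene were averaged. INSIG1 ran from -0.89 to -0.20. The median for lanosterol to cholesterol ran from -0.31 (without experiment 1) to -0.00081. With single experiments left out, ranges were -0.11 to 0.018 for ACAT2, -0.087 to 0.12 for DHCR7, -0.16 to 0.0061 for SCAP, -0.090 to 0.48 for STARD4, -0.45 to 0.14 for FASN, -0.066 to 0.041 for ACACA, -0.21 to 0.10 for FADS2, -0.32 to 0.12 for NSDHL, -0.085 to 0.32 for EBP and -0.20 to 0.17 for ELOVL6. When all probe sets of a gene were averaged, values were 0.11 for MVK, -0.044 for DHCR7, 0.031 for FASN, 0.0068 for SCD, 0.12 for FADS2 and 0.078 for ELOVL6. Quantile normalization again gave 0.011 for ACAT2 and 0.014 for ELOVL6, and array weights 0.043 for ELOVL6. ACAT1 passed without experiment 1 (-0.91). The cause of these changes was not tested.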
